A study of Mus musculus with 19 samples.

Results

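Aqp4, Dtna, Dtnb, Dmd, Dag1 and Agrn were followed in the cortex of tauopathy mice given lemborexant or vehicle. The 6 genes were taken by name from the 55487 genes of each library's table, and all 6 passed the expression filter of the count test. Their levels were compared by treatment, and between libraries with less than 1 CPM (read count scaled to a library total of 1000000) of Cst7 and libraries with at least 1 CPM. Cst7 encodes cystatin F, a protease inhibitor that microglia switch on around amyloid and tau lesions.

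Aquaporin-4 is the main water channel of the brain, and astrocytes concentrate it in the end-feet that wrap blood vessels. A scaffold of short dystrophin and dystrobrevin anchors the channel there. Dystroglycan spans the end-foot membrane in this complex and binds laminin and agrin in the basal lamina, so that the channel faces the vessel. The fluid exchange attributed to this arrangement, often called glymphatic clearance, has been linked to sleep, and lemborexant, an insomnia drug, blocks both receptors of the wake-promoting peptide orexin.

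Of the 19 libraries, 10 were from mice dosed with lemborexant by gavage, 30 mg/kg once a day at zeitgeber time 13, from 7.5 to 9.5 months of age. The other 9 were from mice given the 0.5% methylcellulose vehicle. All mice, treated and control, were male, 41 weeks old and labelled P301S/E4, a genotype that joins a disease mutation of human tau with the E4 form of apolipoprotein E. The promoter that drives the tau transgene is not given in the sources used here, and no mice without the transgene are among these samples.

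Depth was 20185098 to 31795633 estimated reads per library. Replicates were numbered within each group. Lemborexant 1 and 10, 3 and 8, and 4 and 9 were nearly alike across genes, so results are also given over 16 units with these 3 pairs joined. The labels do not tie libraries to animals, and p-values here cover the spread among libraries, which may be technical. In 4 libraries (lemborexant 6 and vehicle 3, 4 and 5) one ribosomal RNA gene took over 3% of the reads. Neuron markers were present at a sum of 3669 to 11765 CPM and astrocyte markers at 5626 to 16108 CPM, the cell types of the labelled cortex. Markers of ependyma and choroid plexus, which lie outside the cortex, varied from 37.3 to 11331 CPM. Aqp4 is also known from ependymal cells. This is bulk RNA, so fewer cells of a type and less RNA per cell cannot be told apart.

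Per unit of length, the channel was the most abundant transcript of the complex. Mean levels over the 19 libraries were 190 TPM (transcripts scaled to length and library) for Aqp4, 62.4 TPM for Dtna, 31.8 TPM for Dtnb, 25.3 TPM for Dmd, 18.5 TPM for Agrn and 12.6 TPM for Dag1. The ranges of neighbours in this order overlapped, from 43.6 to 320 TPM for Aqp4 and from 35.3 to 77.2 TPM for Dtna. Dtnb ranged from 24.3 to 42.5 TPM, Dmd from 12.01 to 33.9 TPM, Agrn from 11.1 to 25.6 TPM and Dag1 from 7.80 to 16.6 TPM. Aqp4 was the most variable, its highest library holding 8.65 times the CPM of its lowest, against 1.36 times for Dtnb and 1.83 to 2.19 times for the other 4 genes.

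Dystrophin is made from several promoters, and the start used decides whether the long muscle form or a short form without most of the rod domain is made. The 2 Dmd start windows in RefSeq are shown because the deposited lengths, given further on, limit the share of the full-length form. Each window covers 250 bases before to 50 bases after a start on GRCm38.p6, plus strand. The first, at chrX:82948620-82948919, lies at the start of the full-length form. The second, at chrX:85048045-85048344, lies at the downstream start, just before the first base of GENCODE's transcript of the short form called Dp71 (85048413), the main dystrophin of glia. Capitals mark the letters GGGCGG of a GC box on either strand. They also mark TATAAA, the core of a TATA box, on either strand.
Dmd upstream start: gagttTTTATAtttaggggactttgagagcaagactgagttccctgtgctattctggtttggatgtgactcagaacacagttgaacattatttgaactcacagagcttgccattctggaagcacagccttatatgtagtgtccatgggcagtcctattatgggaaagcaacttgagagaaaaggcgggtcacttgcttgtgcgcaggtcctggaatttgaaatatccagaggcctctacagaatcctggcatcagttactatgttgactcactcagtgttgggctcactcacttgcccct
Dmd downstream start: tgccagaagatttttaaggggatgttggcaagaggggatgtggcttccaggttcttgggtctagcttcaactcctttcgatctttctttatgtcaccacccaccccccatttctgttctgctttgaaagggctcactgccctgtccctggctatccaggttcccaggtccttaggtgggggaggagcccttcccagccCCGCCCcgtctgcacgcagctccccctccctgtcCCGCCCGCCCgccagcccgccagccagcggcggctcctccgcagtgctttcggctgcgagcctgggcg
The upstream window held 0 GC boxes, 1 TATA match and 2 CG dinucleotides. The TATA match was on the opposite strand and began at position -245 relative to the gene start, near the far edge of the window. The downstream window held 3 GC boxes, 2 of which overlap, 0 TATA matches and 14 CG dinucleotides. Among all 32851 RefSeq windows of this length, 35.7% held a GC box and 13.6% a TATA match on either strand, and the median number of CG dinucleotides was 7. These matches describe letters and not factor binding.

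The first comparison asked whether transcripts of the end-foot complex differed after 2 months of orexin receptor blockade. None of the 6 genes passed the test. By edgeR's quasi-likelihood test, 0 of 6 reached an adjusted p of 0.05, where 2.61% of all 19105 tested genes did, and 1 (Dtnb) had an unadjusted p under 0.05. DESeq2 likewise called 0 of the 6, where it called 1892 of all 37752 genes with an estimate. In CPM, lemborexant and vehicle libraries overlapped for all 6 genes, and 0.162% of tested genes did not overlap. The median log2 difference of the 6 was 0.09, and that of all genes tested was 0.03. With the nearly alike pairs summed, edgeR called 0 of 6 and also 0 of all 19224 genes (0.0%, with 4102 at an unadjusted p under 0.05).

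Aqp4, the channel, ranged from 75.7 through a median of 389 to 655 CPM in the lemborexant libraries and from 85.9 through 312 to 460 CPM in the vehicle libraries. Both groups held 2 libraries far below the rest, and the 3 highest were lemborexant libraries. The log2 difference was 0.23 ± 0.36 (SE, n = 10 and 9, edgeR adjusted p = 0.72), with a 95% interval from -0.49 to 0.94. Without the 4 low libraries the same log2 difference was 0.23 ± 0.20 (SE, n = 8 and 7, edgeR adjusted p = 0.479), with an interval from -0.15 to 0.62. Neither difference was larger than the spread between libraries, and the intervals do not show that the groups are alike.

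Dtna encodes alpha-dystrobrevin, the dystrobrevin of astrocyte end-feet. It ranged from 173 through 193 to 207 CPM after lemborexant and from 107 through 179 to 196 CPM after vehicle. The 3 lowest values in all libraries were those of vehicle 4, 5 and 3, at 107, 128 and 140 CPM, which are also among the libraries over 3% ribosomal RNA. The log2 difference was 0.13 ± 0.08 (SE, n = 10 and 9, edgeR adjusted p = 0.294), and 0.03 ± 0.06 (adjusted p = 0.882) without those libraries and lemborexant 6.

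Dtnb, beta-dystrobrevin, is best known from neurons. It ranged from 19.6 through 22.6 to 26.2 CPM after lemborexant and from 21.5 through 23.4 to 26.7 CPM after vehicle. The groups overlapped over most of their range, with 4 lemborexant libraries below every vehicle library. It was the lowest in p of the 6, with a log2 difference of -0.19 ± 0.08 (SE, edgeR p = 0.0359, adjusted p = 0.166) and a 95% interval from -0.35 to -0.02.

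Dmd ranged from 57.4 through 71.6 to 82.8 CPM after lemborexant and from 37.9 through 63.6 to 75.3 CPM after vehicle. The low values were again those of vehicle 5, 4 and 3, at 37.9, 46.9 and 50.9 CPM. The log2 difference was 0.14 ± 0.09 (SE, edgeR adjusted p = 0.332), and 0.05 ± 0.07 (adjusted p = 0.822) without the libraries over 3% ribosomal RNA. On log2(TPM + 1) in limma it was 0.44 ± 0.16 (adjusted p = 0.0958), a scale on which the median of all genes also moved from 0.03 to 0.18.

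Dag1, the dystroglycan receptor, ranged from 38.8 through 52.3 to 65.7 CPM after lemborexant and from 35.8 through 50.5 to 56.6 CPM after vehicle. Its log2 difference was -0.0035 ± 0.09 (SE, edgeR adjusted p = 0.984), with an interval from -0.17 to 0.17. Agrn encodes agrin, the heparan sulphate proteoglycan that clusters the complex at the vessel. It ranged from 35.3 through 49.0 to 58.6 CPM after lemborexant and from 29.8 through 41.9 to 55.8 CPM after vehicle. The log2 difference of Agrn was 0.05 ± 0.09 (SE, edgeR adjusted p = 0.739), with an interval from -0.12 to 0.22. For both genes the groups covered nearly the same range.

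**Figure D1:**
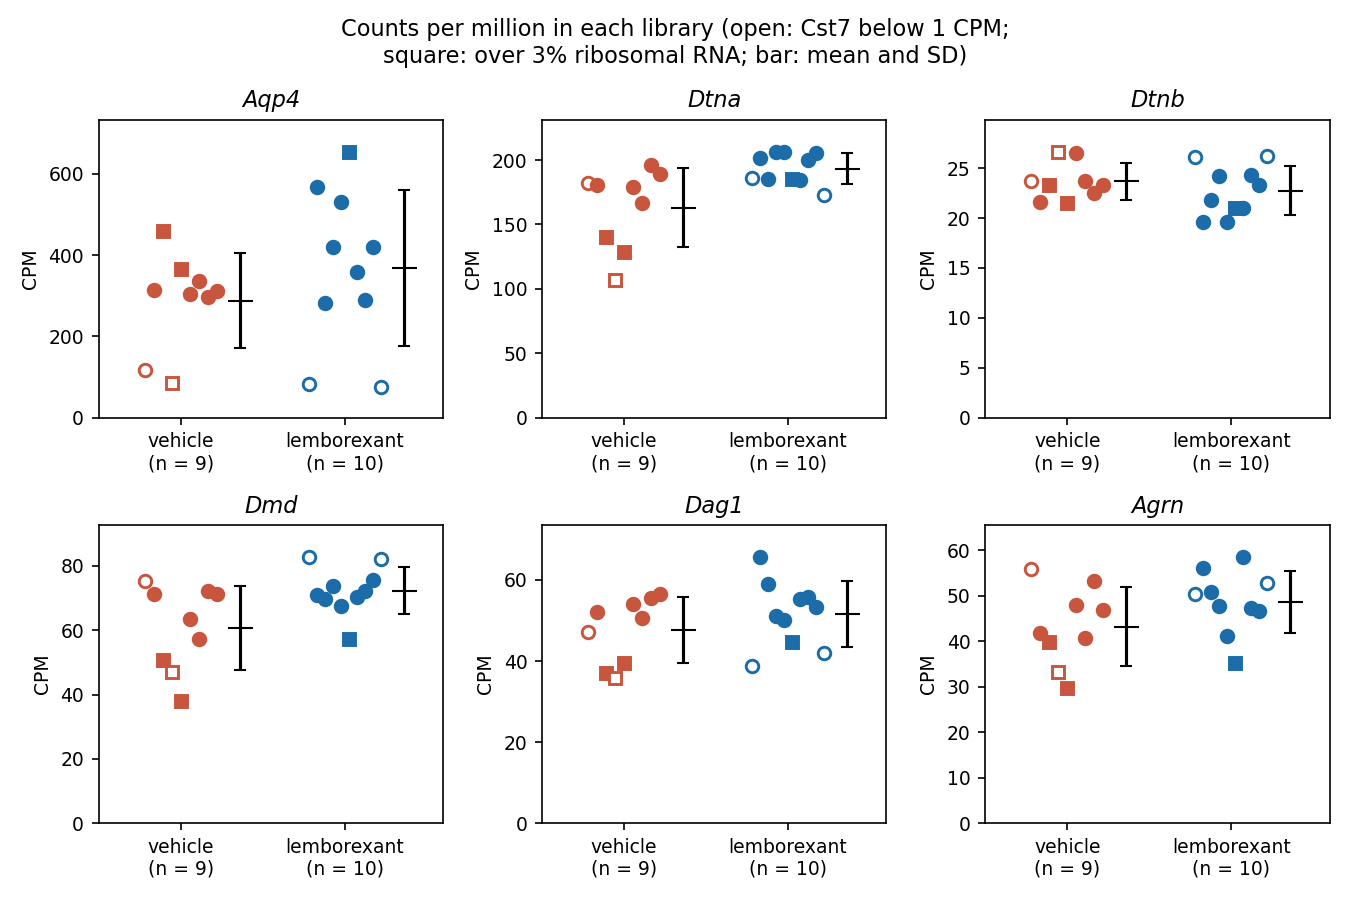
CPM of the 6 genes in each library, by treatment, with the group mean and SD beside the points. Open symbols are libraries with Cst7 below 1 CPM and squares are libraries over 3% ribosomal RNA. The 4 open symbols lie below all others in Aqp4, at 75.7 to 118 CPM, and in no other gene.

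Genes that work with the complex gave few calls in the treatment comparison. Among 16 enzymes that make or prepare the laminin-binding sugar of dystroglycan, 1 fell and 0 rose, against 1.65% and 0.953% of all tested genes. EdgeR called 0 of the 16 with the nearly alike pairs summed and 0 without the libraries over 3% ribosomal RNA, with 2 and 1 at an unadjusted p under 0.05. Gmppb, which makes the GDP-mannose donor, had a log2 difference of -0.24 ± 0.09 (edgeR adjusted p = 0.103), and the list's median was -0.08.

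Of 15 other dystrophin-complex partners (syntrophins, sarcoglycans, sarcospan, utrophin, Drp2 and Nos1), 0 passed edgeR's test, with 1 at an unadjusted p under 0.05. Values were higher after lemborexant in 12 of 15, against 10237 of all 19105 tested genes, and the median log2 difference was 0.12. Utrn encodes utrophin, a dystrophin relative found in vessel walls and end-feet. It averaged 55.0 ± 10.5 CPM (SD, n = 10) after lemborexant and 35.8 ± 11.3 CPM (SD, n = 9) after vehicle, a log2 difference of 0.51 ± 0.14 (SE, edgeR adjusted p = 0.0571). DESeq2 called it (adjusted p = 0.0193), and so did edgeR without the libraries low in Cst7 (0.54 ± 0.13, adjusted p = 0.0368). With the pairs summed it had 0.52 ± 0.16 (adjusted p = 0.114), and without the libraries over 3% ribosomal RNA 0.33 ± 0.11 (adjusted p = 0.219). Sgcz, a sarcoglycan, had 0.37 ± 0.22 (edgeR adjusted p = 0.294).

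Among 11 other end-foot channels, junction and adhesion proteins, 0 passed edgeR's test, with 2 at an unadjusted p under 0.05, and the median log2 difference was 0.15. Kcnj10, the potassium channel Kir4.1 that shares the end-foot with the water channel, had a log2 difference of 0.45 ± 0.20 (SE, edgeR adjusted p = 0.165). DESeq2 called 0 of these 11 genes.

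Basal lamina genes, whose laminins are the partners that dystroglycan grips, gave 13 of 14 higher values after lemborexant. Of all 19105 tested genes, 10237 were higher. Their median log2 difference was 0.42, the largest of the 5 lists of pathway partners, but edgeR called 0 of 14, with 5 at an unadjusted p under 0.05. Lama4, the laminin chain of vessel endothelium, had a log2 difference of 0.82 ± 0.25 (SE, edgeR adjusted p = 0.0689), and Col4a1, a collagen IV chain, 0.39 ± 0.13 (adjusted p = 0.0836). DESeq2 called these 2 and voom 3 (Lama1, Lama4 and Nid1). Of all genes, DESeq2 called 1892 of 37752 and voom 2217 of 19105, where edgeR called 498 of 19105. Vessel and meningeal markers also leaned upward, with 9 of 10 endothelial, 7 of 9 mural and 8 of 9 meningeal fibroblast genes higher and medians of 0.28, 0.31 and 0.91. Summed meningeal markers ranged from 92.7 to 520 CPM after lemborexant and from 77.0 to 261 CPM after vehicle, with 1 of the 9 below 1 CPM throughout the libraries over 3% ribosomal RNA and 0 of 9 elsewhere. EdgeR called none of the genes of these 3 lists, with 7, 4 and 6 at an unadjusted p under 0.05. DESeq2 called 0, 1 and 3. Their part in the laminin values was not tested.

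Agrin's own partners gave 0 calls of 9 in edgeR, with 2 at an unadjusted p under 0.05 and a median of 0.07. Musk, the agrin-responsive kinase of the neuromuscular junction, was at 1.61 ± 0.93 CPM (SD, n = 10) against 0.51 ± 0.40 CPM (SD, n = 9), with a log2 difference of 1.58 ± 0.52 (SE, edgeR adjusted p = 0.0824). Ptprs, a neuronal receptor for heparan sulphate chains, had -0.31 ± 0.10 (edgeR adjusted p = 0.083). DESeq2 and voom, which called a larger share of all genes than edgeR, called both genes. Of 8 other aquaporins only 3 passed the expression filter, and edgeR and DESeq2 called 0 of them. Aqp11, an intracellular aquaporin, had a log2 difference of -0.26 ± 0.12 (edgeR adjusted p = 0.171, called by voom), and Aqp1, the choroid plexus water channel, had 0.72 ± 0.73 (adjusted p = 0.549).

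Markers of other cell types and regions were read in the same fit. EdgeR called 0 of 10 astrocyte, 0 of 9 ependymal and choroid plexus, 0 of 9 activated microglia, 0 of 8 microglia, 0 of 9 neuron, 0 of 8 oligodendrocyte and 0 of 6 tested muscle markers. Of these, 0, 0, 0, 1, 3, 0 and 1 had an unadjusted p under 0.05, and DESeq2 called 1, the neuron gene Gad2. Among 10 hippocampal markers 3 fell (C1ql2, Pkp2 and Nr3c2), against 1.65% of all tested genes, and the median was -0.91. EdgeR called 0 of the 10 with the nearly alike pairs summed and 0 without the libraries over 3% ribosomal RNA, with 8 and 7 at an unadjusted p under 0.05. Summed hippocampal markers ranged from 94.9 to 286 CPM after lemborexant and from 187 to 338 CPM after vehicle. The part of differing tissue make-up in the values above was not tested.

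The second comparison set the 4 libraries with Cst7 below 1 CPM against the other 15. These sets came from a measured gene and not from a label, so values are described and not tested. Cst7 was at 0.12 CPM in lemborexant 1, 0.26 in lemborexant 10, 0 in vehicle 1 and 0.16 in vehicle 4. The nearest library above the threshold was lemborexant 3, at 17.0 CPM, and the highest was vehicle 5, at 123 CPM. Since lemborexant 1 and 10 are a nearly alike pair, the low set holds 3 units and the high set 13.

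Aqp4 was 4.19-fold lower in the low set. Its values there were 83.9 CPM in lemborexant 1, 75.7 in lemborexant 10, 118 in vehicle 1 and 85.9 in vehicle 4. In the other 15 libraries it ranged from 283 through a median of 359 to 655 CPM. The sets did not overlap, and the gap between them was wider than the whole range of the low set. The log2 difference was -2.07 ± 0.25 (SE, 4 and 15 libraries), -1.98 ± 0.28 with pairs summed, -1.74 ± 0.25 within vehicle and -2.45 ± 0.37 within lemborexant.

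In none of the 5 scaffold, receptor and ligand genes were the sets apart. Dag1 was at 38.8, 41.9, 47.1 and 35.8 CPM in lemborexant 1 and 10 and vehicle 1 and 4, against 37.0 through 53.4 to 65.7 CPM in the high set. The sets overlapped, although vehicle 4 was the lowest of all libraries, and the log2 difference was -0.30 ± 0.09 (SE). Dtna was at 186, 173, 183 and 107 CPM in the same 4 libraries, against 128 through 185 to 207 CPM, a log2 difference of -0.15 ± 0.09 (SE). Only vehicle 4 lay below the range of the high set.

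Dtnb, Dmd and Agrn were, if anything, higher in the low set, with log2 differences of 0.23 ± 0.09, 0.17 ± 0.10 and 0.11 ± 0.10 (SE). Dmd reached its highest values of all libraries in lemborexant 1 and 10, at 82.8 and 82.3 CPM, with 75.3 CPM in vehicle 1 and 46.9 CPM in vehicle 4. Dtnb was at 23.7 to 26.7 CPM in the low set and 19.6 to 26.5 CPM in the high set. Agrn was at 33.2 to 55.8 CPM in the low set and 29.8 to 58.6 CPM in the high set.

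Thus 1 of 6 genes did not overlap on the low side, where 6.65% of 20446 tested genes did, and 0 of 6 on the high side, where 0.998% did. Differences of more than 2-fold on the low side held for Aqp4 and for 9.58% of genes. A difference of that size together with no overlap was found for Aqp4 and for 4.52% of genes, and 2.77% of genes lay at least as far below as Aqp4. The ratio of the channel to its partners therefore also separated the sets. In TPM, Aqp4 over Dtna was 0.81 to 1.24 in the low set and 2.43 to 5.33 in the high set, and Aqp4 over Dag1 was 4.48 to 6.08 against 11.6 to 33.9. Aqp4 over Dmd was 1.49 to 3.36 against 6.28 to 16.8.

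**Figure D2:**
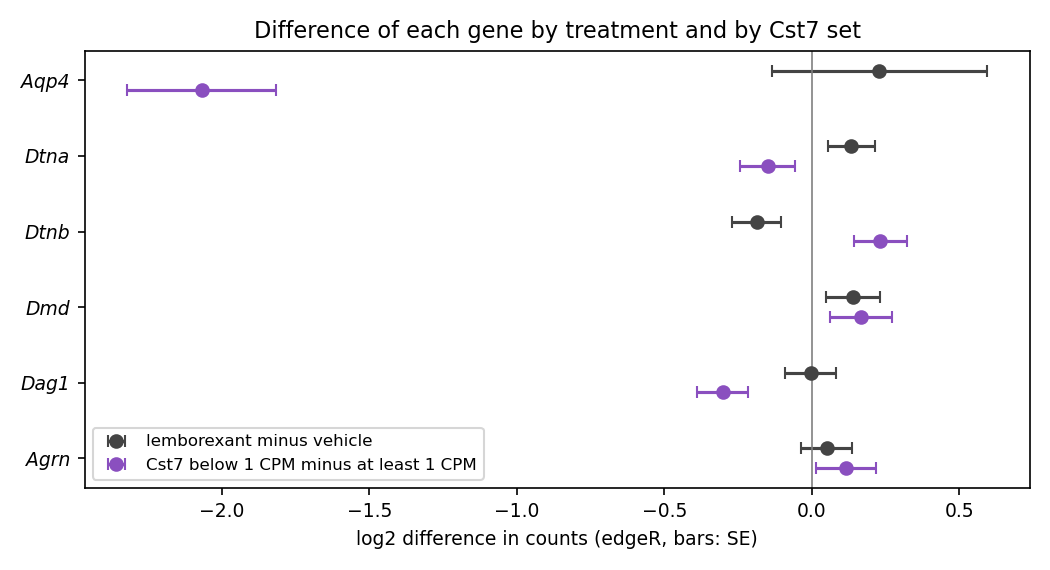
Log2 differences of the 6 genes in counts, with SE, for lemborexant minus vehicle (10 and 9 libraries) and for libraries with Cst7 below 1 CPM minus the others (4 and 15 libraries). By Cst7 set, Aqp4 lies at -2.07 and the other 5 genes between -0.30 and 0.23, while by treatment all 6 lie between -0.19 and 0.23.

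Several other end-foot genes lay low in the same 4 libraries as Aqp4. Of 11 end-foot channels, junctions and adhesion proteins, 6 did not overlap and lay lower in the low set, against 6.65% of all tested genes. These were Kcnj10, Slc4a4, Gja1, Mlc1, Hepacam and Atp1b2. The list's median log2 difference was -0.71, against -0.0028 for all genes. Mlc1, an astrocyte membrane protein of vessel contacts, was at 95.1 to 141 CPM against 199 to 376 CPM, a log2 difference of -1.22 ± 0.19 (SE). Trpv4, a cation channel, had -1.13 ± 0.60 with overlapping sets.

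Of 15 dystrophin-complex partners, 0 separated the sets in either direction, against 6.65% of all tested genes lower and 0.998% higher. With 15 genes, 0 is near those shares. The median was -0.05. Sspn, or sarcospan, had a log2 difference of -0.74 ± 0.12, at 6.37 to 11.4 CPM against 10.6 to 17.2 CPM, and Sntb1, beta-1-syntrophin, had -0.62 ± 0.21.

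Among the 16 dystroglycan glycosylation enzymes, 0 lay lower without overlap and 1 lay higher, against 6.65% and 0.998% of all tested genes. The list's median was -0.004. The higher one was Pomk, the kinase of the dystroglycan sugar, at 60.3 to 70.5 CPM against 27.4 to 60.0 CPM (log2 difference 0.47 ± 0.11, SE). Ispd had -0.39 ± 0.11 with overlapping sets. Of 14 basal lamina genes 0 separated the sets and the median was -0.59, with Lama1 at -1.41 ± 0.45 and Col18a1 at -1.03 ± 0.28. Of 9 agrin partners 2 lay lower without overlap. These were Rapsn, a receptor-clustering protein, at -2.04 ± 0.47 from a mean of 2.51 CPM, and Itgb1, beta-1 integrin, at -0.74 ± 0.11. Among the aquaporins that passed the filter, Aqp1 had -1.40 ± 0.95 and Aqp9 had -1.23 ± 0.42, both with overlapping sets.

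Markers of glia moved with the Cst7 sets. Of 10 astrocyte markers 5 did not overlap and lay lower in the low set, against 6.65% of all tested genes. The list's median was -0.38. Gfap, the intermediate filament of reactive astrocytes, was at 421 to 587 CPM against 3341 to 8159 CPM, a log2 difference of -3.40 ± 0.30 (SE), and S100b had -1.05 ± 0.29. Slc1a2, the main glutamate transporter of astrocytes, was at 771 to 1615 CPM against 958 to 1839 CPM, and Aldoc at 2085 to 2220 CPM against 2084 to 3093 CPM. Fgfr3, a growth factor receptor of astrocytes, leaned the other way, at 97.7 to 128 CPM against 64.9 to 126 CPM (log2 difference 0.37 ± 0.07, SE). These 3 were named after their values were seen. Summed astrocyte markers were 5626 to 7208 CPM in the low set and 10033 to 16108 CPM in the high set, and 0 of 10 were below 1 CPM throughout. Without Gfap, the sums of the other 9 overlapped slightly, at 5205 to 6621 CPM against 6588 to 8050.5 CPM. The part of astrocyte content in the Aqp4 values was not tested.

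Of 9 activated microglia markers, 1 of which is Cst7 itself, 8 lay lower without overlap, against 6.65% of all tested genes. Of these markers, 4 of 9 were below 1 CPM throughout the low set. Cst7 defines the sets, so it is in both counts by construction. Of the rest, Itgax, Clec7a, Cd68, Axl, Ccl3, Spp1 and Gpnmb lay lower without overlap, and Lpl overlapped. Of 8 microglia markers 6 lay lower without overlap, with sums of 432 to 574 CPM against 1205 to 3454 CPM. Neuron markers separated in 0 of 9 genes, with a median of 0.46 and sums of 9013 to 11765 CPM in the low set against 3669 to 9481 CPM. Oligodendrocyte, mural, meningeal, hippocampal and muscle markers separated in 0 genes each, with medians of -0.83, -0.54, -0.65, 0.42 and 0.35. Endothelial and ependymal or choroid plexus markers separated in 1 gene each, with medians of -0.27 and -1.37.

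**Figure D3:**
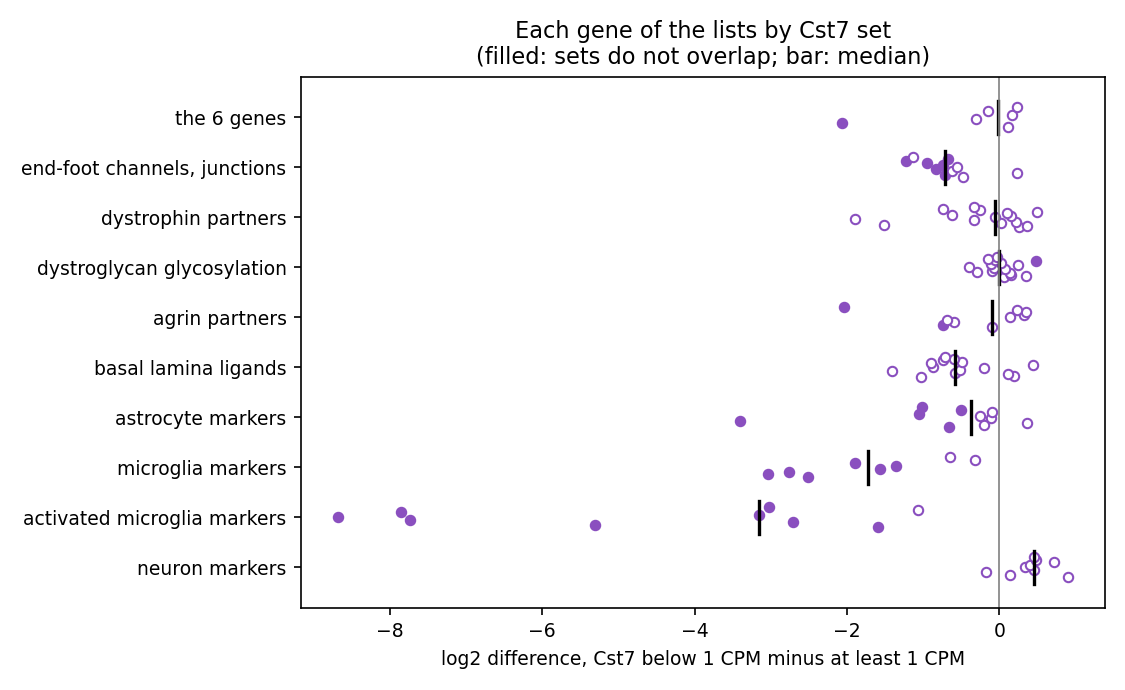
Log2 difference of each gene, Cst7 below 1 CPM minus at least 1 CPM, for the 6 genes and 9 lists. Each circle is a gene, filled where the 4 and 15 libraries do not overlap. The bar is the list's median, at -0.71 for end-foot channels, -0.05 for dystrophin partners and -3.15 for activated microglia markers. The last list includes Cst7, which defines the sets.

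Within the 13 units that had Cst7, Aqp4 rose with it and Agrn, Dag1 and Dmd declined. This relation was added after seeing the data and computed for the 6 genes on log2(CPM + 1), with permutation p-values adjusted over the 6. Cst7 had also formed the sets, so these p-values are descriptive. For Aqp4, Pearson's r was 0.63 (permutation p = 0.022, adjusted p = 0.033) and Spearman's rho was 0.68 (p = 0.0141, adjusted p = 0.0283). Without the 2 units farthest from the median of Cst7, r was 0.49. It was 0.98 within 6 lemborexant units, 0.72 within 7 vehicle units and 0.56 over the 10 units with at most 3% ribosomal RNA. Gfap, computed beside the 6 and named after its values were seen, also rose with Cst7, with r 0.94 and rho 0.93 (permutation p = 1e-05, the smallest the permutations can give, and 2e-05, not adjusted). Its r was 0.92 without the 2 farthest units and 0.95 over the 10 units, and its part in the Aqp4 relation was not tested.

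Agrn, Dag1 and Dmd went the other way from Aqp4, and Dtna and Dtnb did not pass. For Agrn, r was -0.75 (permutation p = 0.00296, adjusted p = 0.0178) and rho was -0.78 (p = 0.00267, adjusted p = 0.0121). For Dag1, r was -0.64 (permutation p = 0.0166, adjusted p = 0.033) and rho was -0.76 (p = 0.00404, adjusted p = 0.0121), and for Dmd r was -0.65 (permutation p = 0.0119, adjusted p = 0.033) and rho was -0.63 (p = 0.0233, adjusted p = 0.0349). For Dtna r was -0.50 (permutation p = 0.0838, adjusted p = 0.101) and rho was -0.41 (p = 0.168, adjusted p = 0.202), and for Dtnb r was -0.24 (permutation p = 0.421, adjusted p = 0.421) and rho was -0.34 (p = 0.255, adjusted p = 0.255). For Dtna r was 0.18 within 6 lemborexant units, -0.88 within 7 vehicle units and -0.04 over the 10 units with at most 3% ribosomal RNA, and for Dtnb it was -0.63, -0.11 and -0.22. For Agrn, Dag1 and Dmd r was -0.66, -0.46 and -0.66 within lemborexant and -0.85, -0.82 and -0.79 within vehicle. Without the 2 farthest units r was -0.78 for Agrn, -0.65 for Dag1 and -0.67 for Dmd. Over the 10 units with at most 3% ribosomal RNA, r weakened to -0.54 for Agrn, -0.24 for Dag1 and -0.36 for Dmd, so these 3 relations rest in part on lemborexant 6, vehicle 3 and vehicle 5, which were also the 3 libraries highest in Cst7.

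**Figure D4:**
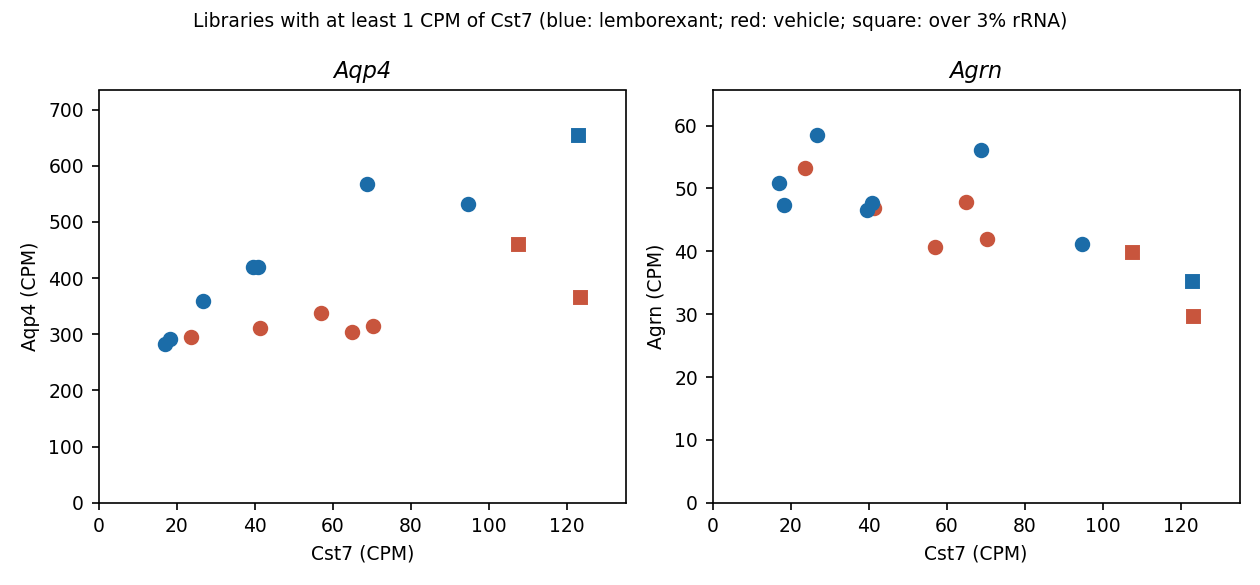
Aqp4 and Agrn against Cst7, all in CPM, in the 15 libraries with at least 1 CPM of Cst7, blue for lemborexant and red for vehicle, with squares for libraries over 3% ribosomal RNA. Aqp4 is at 283 CPM at the lowest Cst7 and at 655 CPM in lemborexant 6. In vehicle 5, the library highest in Cst7, Aqp4 is at 367 CPM and Agrn is lowest, at 29.8 CPM.

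By Pearson's r over the 16 units, the scaffold, receptor and ligand genes varied together, apart from Dtnb. Over 16 units and 15 pairs of genes, r of log2(CPM + 1) was 0.85 for Dmd and Agrn (permutation p = 5e-05, adjusted p = 0.00075), with rho 0.72 (p = 0.00258, adjusted p = 0.0322) and r 0.69 without the 2 units farthest from the median of Dmd. For Dtna and Dmd r was 0.83 (permutation p = 0.0004, adjusted p = 0.002), with rho 0.54 (p = 0.0318, adjusted p = 0.119) and r 0.67 without 2 units. For Dtna and Dag1 r was 0.79 (permutation p = 0.00016, adjusted p = 0.0012), with rho 0.66 (p = 0.00645, adjusted p = 0.0322) and r 0.68 without 2 units. The other 3 pairs among Dtna, Dmd, Dag1 and Agrn had r from 0.62 to 0.69, with adjusted p of 0.0114 to 0.0248, rho from 0.42 to 0.67 with adjusted p of 0.0322 to 0.179, and r from 0.34 to 0.58 without 2 units.

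These relations weakened without the 4 libraries over 3% ribosomal RNA. In the 12 units with at most 3% ribosomal RNA, r was 0.51 for Dmd and Agrn, 0.36 for Dtna and Dmd, 0.40 for Dtna and Dag1, and -0.32 to 0.18 for the other 3. Within treatments, r for Dtna and Dmd was 0.88 in 9 vehicle libraries and -0.05 in 7 lemborexant units. Over the pairs among Dtna, Dmd, Dag1 and Agrn, r was 0.71 to 0.92 in vehicle and -0.10 to 0.69 in lemborexant. The 4 libraries averaged 48.3 CPM of Dmd, 34.6 CPM of Agrn and 140 CPM of Dtna, against 71.7, 49.2 and 189 CPM in the other 15. Dtnb averaged 23.1 and 23.2 CPM.

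Aqp4 separated by Cst7 set, so its pairs were taken within the 13 units that had Cst7. No pair with Aqp4 passed. The strongest was with Dtnb, at r = -0.61 (permutation p = 0.029, adjusted p = 0.0621) and rho = -0.52 (p = 0.0738, adjusted p = 0.158), falling to -0.46 without 2 units. With Dtna, Dmd, Dag1 and Agrn, r lay between -0.25 and 0.09, and adjusted p between 0.601 and 0.903, with adjusted p of rho between 0.179 and 0.762. These values differed between subsets. Within 7 vehicle units r with Aqp4 was -0.93 for Dag1, -0.82 for Dtna, -0.66 for Dmd, -0.57 for Agrn and -0.15 for Dtnb. Within 6 lemborexant units it was -0.34 for Dag1, 0.15 for Dtna, -0.62 for Dmd, -0.54 for Agrn and -0.63 for Dtnb. Over the 10 units with at most 3% ribosomal RNA it was 0.21 for Dag1, 0.59 for Dtna, 0.12 for Dmd, 0.06 for Agrn and -0.69 for Dtnb.

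Among 16547 genes with a mean of at least 1 CPM, those most like Aqp4 over the 16 units were Abhd4 (r = 0.987), Skap2 (0.984), Vim (0.984), Tmem106a (0.983) and Hspb6 (0.982). Vim encodes vimentin, an intermediate filament of reactive astrocytes. The 16 units include the separate low set, and within the 13 other units r for these 5 was 0.917 to 0.97. Most like Dmd were Ank2 (r = 0.976), a neuronal ankyrin, Gm42946 (0.972) and 8030462N17Rik (0.972). Most like Agrn were 5730408A14Rik (0.964), Sec16a (0.952) and Hcfc1 (0.952). These are descriptions over libraries that differed in depth and in summed cell-type markers. The part of these differences in the r values was not tested.

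Each deposited table also gives a length per gene, read here as the mean length of the gene's transcripts weighted by their abundance. It differed between libraries for each of the 6 genes, so it is not a fixed annotated length. It was constant at the annotated length for 33976 of 34176 genes with a single transcript, which other definitions of length would also give. For Dmd the length bears on the share of the full-length transcript. In GENCODE's GRCm38 annotation that transcript has 14910 bases and the Dp71 transcript 4438 bases. Dmd (X, 82948870 to 85206141, plus strand) had a mean length of 3891 to 4819 bases over the 19 libraries, near the short form. Taking every other transcript at the shortest annotated length, the full-length transcript could make up at most 24.2% to 30.6% of Dmd molecules in any library, an upper limit. Many partial transcripts are annotated too, including Dmd-205, of 3690 bases, which begins at the upstream start (82948870). The lengths thus give neither each form's share nor the start used.

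Mean Dmd length was 4029 ± 109 bases (SD, n = 10) after lemborexant and 4260 ± 276 bases (SD, n = 9) after vehicle. Lemborexant libraries ran from 3891 through 4020 to 4287 bases and vehicle libraries from 3933 through 4210 to 4819 bases, so the groups overlapped. Vehicle 4 was the longest by far. The difference of -232 bases had p = 0.0172 in an exact two-sided permutation test over all 92378 splits, and an adjusted p of 0.103 over the 6 genes. It passed the threshold when lemborexant 1, vehicle 5 or vehicle 6 was left out (-261, -265 and -273 bases, exact permutation adjusted p = 0.0395, 0.0451 and 0.0259). With the pairs averaged the adjusted p was 0.202. The other 5 genes differed by at most 76.1 bases, with adjusted p of 0.739 or more.

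**Figure D5:**
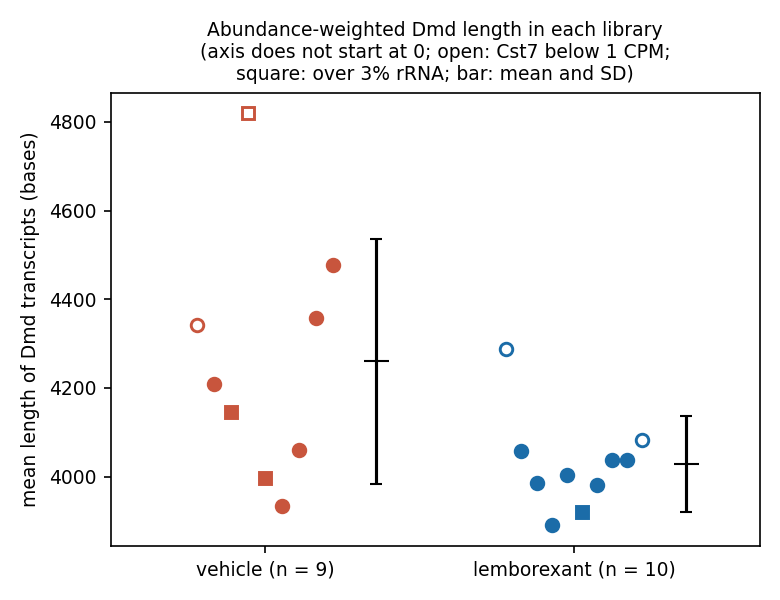
Abundance-weighted mean length of Dmd transcripts, in bases, in each library by treatment, with group mean and SD. The vertical axis does not start at 0. Lemborexant libraries lie between 3891 and 4287 bases and vehicle libraries between 3933 and 4819 bases.

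The other genes' places on GRCm38, by GENCODE, are chromosome 12 from 3572381 to 3781796 for Dtnb (plus strand), chromosome 9 from 108204634 to 108263958 for Dag1 and chromosome 4 from 156165290 to 156197488 for Agrn (both minus strand). Aqp4 and Dtna are on chromosome 18. Because the strand setting is not given in the sources used here, reads of antisense genes cannot be told apart, but such genes were low. The antisense neighbours of Aqp4, Dtna, Dtnb and Dmd reached at most 1.92, 0.49, 0.95 and 0.08 CPM in any library, and Dag1 and Agrn overlapped none.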

How the data were processed

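The 19 cortical RNA libraries were grouped by the treatment in the labels, and replicates were numbered in the order of the samples, which pairs nothing. The submitters' processing notes name bcl2fastq, DRAGEN 3.9.3-8 and the GRCm38 build. Which annotation release and strand setting they used is not given in the sources used here. Per the file headers, the deposited tables hold a length, an effective length, a TPM value and an estimated count for 55487 genes. Estimated counts were rounded for count tests, and CPM was each deposited estimated count over the library's total. The deposited TPM values are scaled to length and library, and were used for levels between genes and for 2 alternatives. A length in bases was read as that of a gene's transcripts weighted by abundance, since it differed between libraries for the 6 genes. Of genes with 1 transcript, 99.4% had their annotated length, which does not show the weighting. GENCODE's GRCm38 annotation gave a symbol for 55141 identifiers, and RefSeq (GRCm38.p6) gave start windows for 4 of the 6 genes.

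Treatment was tested with edgeR 4.0.16's quasi-likelihood test (R 4.3.3), robust, with TMM factors and edgeR's expression filter, two-sided, Benjamini-Hochberg adjusted over 19105 genes, threshold 0.05. The SE is the log2 difference over the square root of F, and intervals use normal quantiles at 95%. Differences between Cst7 sets came from the same kind of fit over 20446 genes with treatment as covariate, and no p was taken from it. Correlations used log2(CPM + 1) over 16 units with nearly alike pairs averaged, and 100000 permutations. Lengths were compared by exact permutation. Alternatives were RLE factors, no filter, DESeq2 1.42.0, limma 3.58.1 (voom, and log2(TPM + 1) and log2(TPM + 0.1)), pairs summed, the library number series, and libraries left out. Leaving out the libraries over 3% ribosomal RNA, the interaction with number series and the relation with Cst7 were added after seeing the data.

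The 6 genes and the lists were chosen with earlier results of these data known. Beside the 6, each list is given by counts and median, with the called genes, the 2 of smallest treatment p and the 2 of largest Cst7-set difference at a mean of at least 1 CPM. Some genes that this rule selects are not reported here. Genes most like Aqp4, Dmd and Agrn were ranked by Pearson's r. On counts simulated from 10 against 9 libraries with 18824 genes, 39% of 100 genes changed 1.5-fold and 86% of 100 changed 2-fold were recovered, with 7 false among 132 calls. The simulated libraries were drawn independently, without nearly alike pairs, so these shares need not hold for the measured libraries. With at least 20185098 reads per library, Dtnb had the fewest reads of the 6 (479 to 795), with a Poisson counting SD of 3.55% to 4.57% against an SD of its CPM between libraries of 9.47%. For Aqp4 these were 0.815% to 2.21% and 49.1%.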

Additional observations from a re-analysis of the deposited data

Results flagged for a closer look

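Among 36 groups of 4 to 10 libraries examined for a library far from the rest, 2 held one, where chance alone marks about 1 group in 20. Dtna in vehicle 4, at 107 CPM, lay far below the other 3 libraries with Cst7 under 1 CPM, which were at 173, 183 and 186 CPM. Vehicle 4 also had 3.44% of its reads on the ribosomal RNA gene, against 1.34% to 1.59% in those 3, and the part of this in the Dtna value was not tested. The mean Dmd transcript length in lemborexant 1, at 4287 bases, lay above the other 9 lemborexant libraries, which ran from 3891 to 4082 bases.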

How the results depend on the processing

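No paired analysis was possible because the labels give no replicate numbers shared between the groups. None of the 6 genes passed the treatment threshold under any of 33 alternatives each, the lowest adjusted p being 0.0958 (Dmd, log2(TPM + 1)). Signs turned within libraries 859 to 933 for Aqp4 (-0.26), Dtna (-0.029), Dtnb (0.073) and Agrn (-0.061), and for Dag1, which started near 0, at log2(TPM + 0.1) (0.19), log2(TPM + 1) (0.17), pairs summed (0.015), within libraries 1064 to 1602 (0.063), without lemborexant 7 and vehicle 7 (0.0075), and without the libraries low in Cst7 (0.021, or 0.0198 with pairs summed). The cause was not tested. No gene passed edgeR's test of whether its treatment difference differed between the number series (21561 genes, 789 at an unadjusted p under 0.05). A difference between the number series themselves was not tested. Leaving out 1 library gave treatment differences of -0.038 to 0.034 for Dag1, 0.07 to 0.36 for Aqp4, 0.08 to 0.16 for Dtna, -0.22 to -0.15 for Dtnb, 0.09 to 0.17 for Dmd and 0.01 to 0.09 for Agrn.

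The number of all genes called moved from 498 to 254 with no filter, 1892 with DESeq2, 2217 with voom, 143 on log2(TPM + 1), 41 on log2(TPM + 0.1), 318 with the number series as covariate, 8 within libraries 1064 to 1602 and 307 without lemborexant 7 and vehicle 7. It was 0 with pairs summed, with pairs summed and the libraries low in Cst7 left out (3928 at an unadjusted p under 0.05), within libraries 859 to 933 (910), and without the libraries over 3% ribosomal RNA (2599). Leaving out 1 library gave 31 to 1274.

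Length differences turned for Aqp4 (7.84 bases, pairs averaged) and Dtna (-52.1 bases, libraries low in Cst7 left out), and ranged without 1 library from -28.7 to 3.8 bases for Aqp4, -69.1 to 57.7 for Agrn and -273 to -162 for Dmd. The Aqp4 difference by Cst7 set was -2.45 within lemborexant and -2.21 to -1.94 without 1 library. Correlations changed without the libraries over 3% ribosomal RNA, to 0.36 (Dtna and Dmd, 0.94 on TPM), 0.40 (Dtna and Dag1), 0.15 (Dtna and Agrn), -0.32 (Dmd and Dag1), 0.51 (Dmd and Agrn) and 0.18 (Dag1 and Agrn). The cause was not tested.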
